A study of Rattus norvegicus with 19 samples.

Results

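Mast cells sorted from the hippocampus of newborn rats were compared with mast cells sorted from the bone marrow of rats of the same age, postnatal day 2 (PN2). All libraries with these 2 tissue and age labels were taken, 4 from hippocampus and 4 from bone marrow, out of 19 in the series, and 20521 of 29107 transcripts passed the low-count filter and were tested. Per the labels, all animals were wild type (WT) and were perfused with buffered saline under anaesthesia. Each replicate pooled cells of 6 animals, so animals within a pool cannot be told apart and p-values measure the spread between pools. In the edgeR fit the estimate of this spread is shared over the pools of all 19 libraries. After a Percoll gradient, the sort gated on viability, singlets, a high CD45 signal, absence of CD11b and FcεRI at the surface. The other 11 libraries are hippocampus at PN7 (3), hypothalamus at PN2 (2) and PN7 (1), and skin at PN2 (5); they entered the shared fit, and their levels are given only for reference.

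Mast cells are long-lived tissue immune cells that carry FcεRI, the high-affinity receptor for IgE, and KIT, the receptor for stem cell factor. They store histamine and proteases in granules and release them on activation. Mast cells that derive from bone marrow leave it as immature progenitors and mature in the tissue they enter. Whether the hippocampal cells compared here came from bone marrow was not tested. In the rodent brain mast cells lie mainly along vessels and in the meninges, including those next to the hippocampus. FcεRI is also carried by basophils, so a gate on this receptor does not by itself separate both cell types.

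The deposited rows are Ensembl transcripts, and 0 of their identifiers could be paired with a gene symbol. The sorted cells therefore could not be checked against KIT, FcεRI or any other marker, and a share of other cells in either tissue was not tested. Transcripts are described below by level and by fold, and 2 are named in each direction. Those named were picked as called and without overlap between the tissues, so their separation and adjusted p do not count as separate findings. A change of isoform and a change of the whole gene look alike at this level. In bulk RNA, fewer cells of a type and less RNA per cell cannot be told apart either.

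The 8 libraries held similar total estimated counts, 19935250 to 22967152 in hippocampus and 16196856 to 22563833 in bone marrow. Across transcripts, which are not independent replicates, log2 CPM (counts relative to the library total, scaled between libraries by TMM) of bone marrow replicates 1 to 3 correlated with each other at 0.968 to 0.972 and with replicate 4 at 0.919 to 0.929. Hippocampus replicates 1 to 3 correlated at 0.962 to 0.968 with each other and at 0.938 to 0.949 with replicate 4. Replicate 4 of each tissue thus stood apart from the rest of its group, in bone marrow more than in hippocampus. Correlations between both tissues ran from 0.805 to 0.866. Counts of replicates differed far beyond counting error, with a chi-square per degree of freedom of at least 19.3 in bone marrow and 24.1 in hippocampus. Differences in library preparation also exceed counting error, so these values do not show that the pools were separate. All 8 libraries were counted as separate by their labels.

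The 2 most abundant transcripts of hippocampal mast cells were also present in bone marrow, at a lower level. ENSRNOT00000014970.7, the most abundant of all in hippocampus, held 64569.7, 130935, 88544 and 65593 CPM in replicates 1 to 4. In bone marrow it held 3577, 5186, 4836 and 239 CPM, so the groups did not overlap and bone marrow replicate 4 was far below the other 3. Its mean was 87410.5 ± 31055 CPM in hippocampus and 3460 ± 2255 CPM in bone marrow (n = 4 each, SD), and the fitted log2 fold change was 4.66 ± 0.64 (SE), with an adjusted p of 2.97e-05 in edgeR's quasi-likelihood test. This 1 transcript took between 6.26% and 11.6% of all counts in the hippocampus libraries, and between 0.0292% and 0.560% in bone marrow. It was at 49968 to 76824 CPM in skin, 57114 to 61374 CPM in hippocampus at PN7, 30615 and 52274 CPM in hypothalamus at PN2 and 14047 CPM in the hypothalamus library of PN7.

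The second most abundant hippocampal transcript, ENSRNOT00000067539.2, showed the same arrangement of libraries with less spread. It held 62919, 67436, 72664 and 54584 CPM in hippocampus replicates 1 to 4. In bone marrow replicates 1 to 4 it held 7079, 7771, 8490.1 and 1201 CPM. All hippocampus libraries lay above all bone marrow libraries, and bone marrow replicate 4 was again the lowest. The means were 64401 ± 7661 and 6135 ± 3340 CPM (SD, n = 4 each), and the fitted log2 fold change was 3.39 ± 0.46 (SE), with an edgeR adjusted p of 2.51e-05. It ranked 9th in bone marrow and was thus among the top 10 transcripts of both tissues. Its levels were 33709 to 74984 CPM in skin, 37925 to 42755 CPM in hippocampus at PN7 and 20520.2 and 27828 CPM in hypothalamus at PN2. The hypothalamus library of PN7 held 4491 CPM, below bone marrow replicates 1 to 3 and above replicate 4.

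In the other direction, the most abundant bone marrow transcript, ENSRNOT00000073555.2, was low in hippocampal mast cells but present in every library. It held 45778, 42644, 47854 and 16091 CPM in bone marrow replicates 1 to 4. In hippocampus it held 135, 141, 137 and 221 CPM. Replicate 4 was the lowest library in bone marrow and the highest in hippocampus. The means were 38092 ± 14822 CPM in bone marrow and 159 ± 41.9 CPM in hippocampus (SD, n = 4 each), and the fitted log2 fold change was -7.91 ± 0.37 (SE; adjusted p = 3.46e-10, edgeR). The hippocampal level lay above that of skin, at 11.6 to 17.5 CPM, and below those of hippocampus at PN7, at 485 to 713 CPM, and of hypothalamus at PN2, at 2625 and 2847 CPM. These 4 groups were set side by side without a test.

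ENSRNOT00000011168.3 came closest among the 4 named transcripts to being present in bone marrow alone. It held 13925, 12071, 15571 and 8037 CPM in bone marrow replicates 1 to 4. In hippocampus replicates 1 to 4 its rounded counts were 1, 49, 0 and 266, that is 0.0465, 2.53, 0 and 11.7 CPM. Most of its hippocampal reads thus came from replicate 4. The means were 12401 ± 3242 and 3.57 ± 5.55 CPM (SD, n = 4 each), the bone marrow mean being 3474 times the hippocampal one, and 14458 times without hippocampus replicate 4. The fitted log2 fold change was -11.74 ± 2.36 (SE; adjusted p = 0.00126, edgeR), and its 95% interval ran from -16.76 to -6.73. Scattered reads also appeared elsewhere, with 39.4 CPM in 1 hippocampus library of PN7 and 31.7 CPM in 1 hypothalamus library of PN2, where the other libraries of the same group were at 0. Skin replicates 3, 4 and 5 held 0.358, 4.44 and 5.14 CPM, the other 2 skin libraries were at 0, and the hypothalamus library of PN7 held 3 counts.

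**Figure D1:**
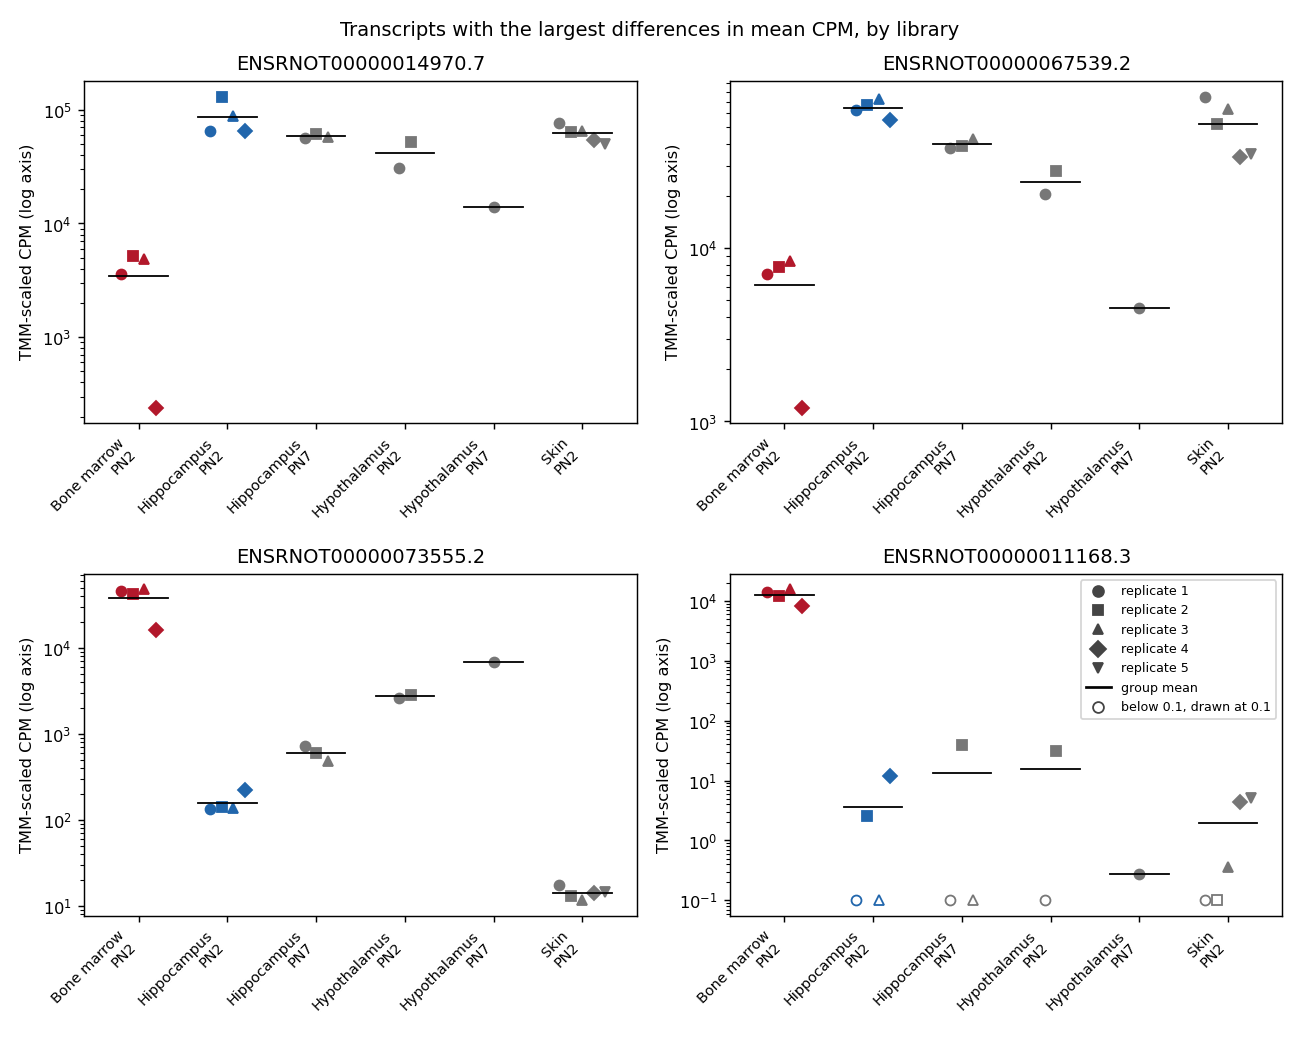
TMM-scaled CPM (log axis) of the 4 named transcripts in all 19 libraries by group, with 1 symbol per replicate number, the group mean as a line and values below 0.1 drawn open at 0.1. The upper 2 transcripts are at 54584 CPM or more in every hippocampus library of PN2 and at most 8490.1 CPM in bone marrow, and in the lower 2 every bone marrow library lies above every hippocampus library. Such a separation was a condition for naming them.

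The difference reached much of the transcriptome. Of the 20521 transcripts tested, 5897 (28.7%) were called at an adjusted p below 0.05 in edgeR's quasi-likelihood test, 3251 (15.8%) higher and 2646 (12.9%) lower in hippocampus. The filter ran over all 19 libraries, so the 20521 include transcripts seen only in other groups. This lowers the shares over all transcripts tested and under 1 CPM. With only the 8 libraries filtered and fitted, 15417 were tested and 5932 called. All 4 hippocampus libraries lay above all 4 bone marrow libraries for 2974 of the 3251, and below for 2381 of the 2646. Over all transcripts tested, the called ones included, such an order was found in 18.7% and 16.3%. Calls and order come from the same 8 libraries, so a high share among the calls follows largely from the calling. On the fitted scale, differences of 2 to 4 times made up 24.4% of the calls in the higher direction and 19.5% in the lower, those of 4 to 16 times 21.3% and 16.6%, and those of at least 16 times 29.2% and 29.7%. Differences under 2-fold made up 25.1% of the higher and 34.1% of the lower calls. Of the 5897 calls, 718 fell on transcripts whose values are identical to those of at least 1 other transcript, so the number of separate measurements is smaller.

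**Figure D2:**
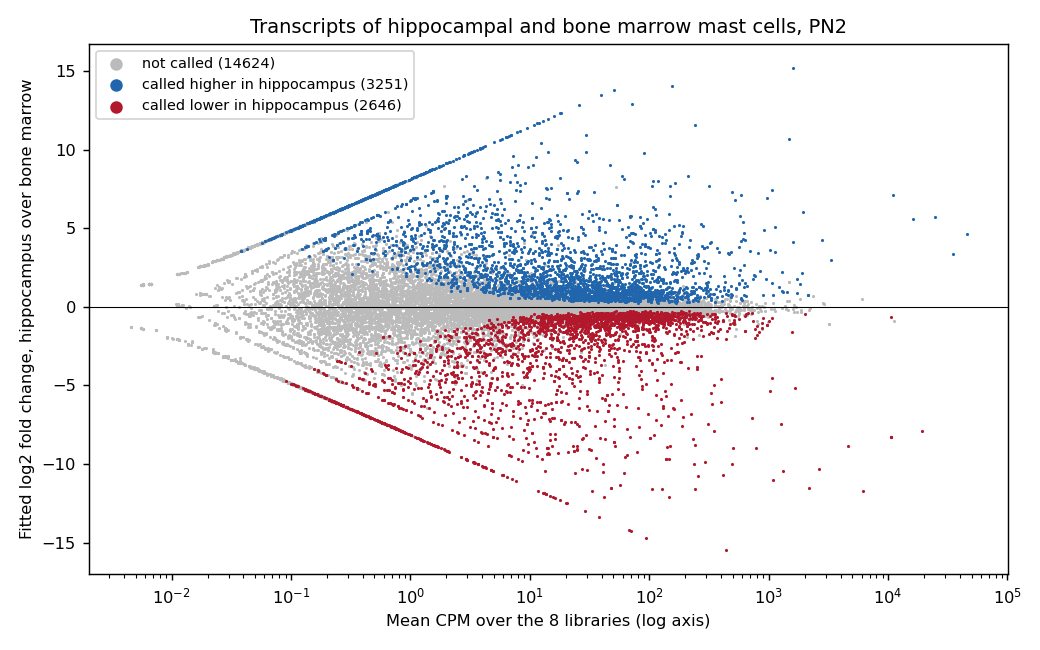
Fitted log2 fold change, hippocampus over bone marrow at PN2, against mean CPM over the 8 libraries (log axis), 1 point per transcript, with called transcripts coloured by direction. Calls lie in both directions at every level (3251 higher, 2646 lower), and the slanted edges on the left are transcripts with few or 0 counts in one of the tissues.

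The largest folds came mostly from transcripts of low level. Of the calls of at least 16-fold, 760 of 949 higher and 547 of 787 lower transcripts had a mean under 10 CPM over the 8 libraries. That left 189 higher and 240 lower transcripts that combined at least 10 CPM with at least 16-fold. The share called rose with level, from 13.7% of 6084 transcripts under 1 CPM to 28.1% of 5206 at 1 to 10 CPM, 37.1% of 7526 at 10 to 100 CPM, 46.6% of 1629 at 100 to 1000 CPM and 61.8% of 76 at 1000 CPM or more. The median SD of log2 CPM between replicates was 0.67 in both tissues under 1 CPM. From 10 CPM upwards, in the same 3 classes, it was 0.22, 0.19 and 0.26 in hippocampus and 0.26, 0.28 and 0.50 in bone marrow.

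Many transcripts of moderate level could be bounded as similar in both tissues. Among 9231 transcripts with a mean of at least 10 CPM, the unadjusted 95% interval of the log2 fold change lay within 1 on either side of 0, that is within 2-fold, for 5020 (54.4%). Of these, 747 were also called, as differences under 2-fold. For 1359 (14.7%) the transcript was neither called nor bounded within 2-fold. Under 1 CPM only 1 of 6084 transcripts was bounded in this way, and 86.3% were neither called nor bounded, so that at this level the data do not decide in most cases. The class of at least 1000 CPM was the exception to the trend with level: 22 of 76 (28.9%) were bounded within 2-fold, against 59.2% at 100 to 1000 CPM.

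**Figure D3:**
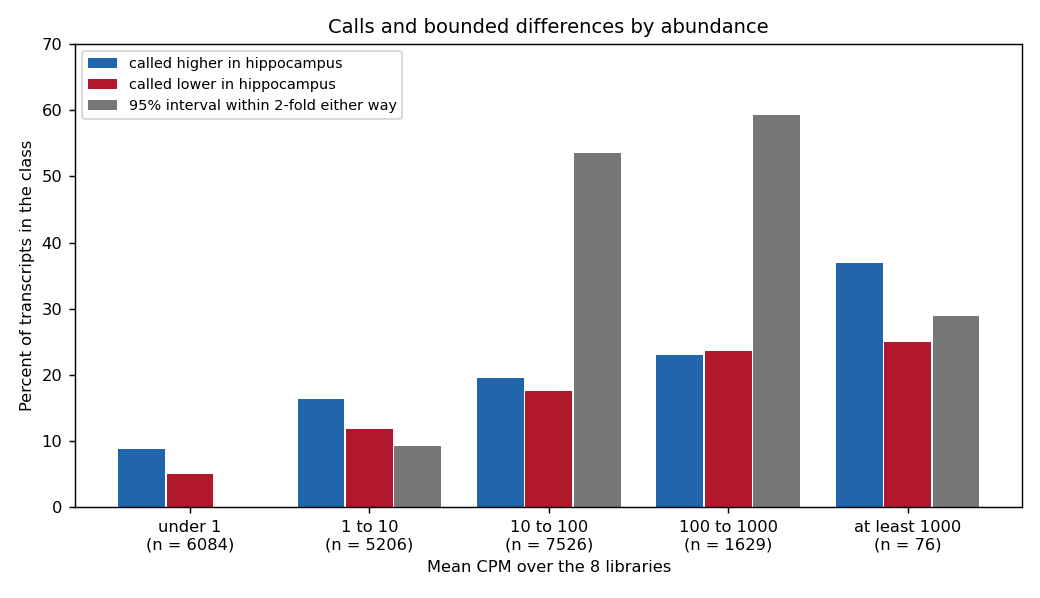
Percent of transcripts in 5 classes of mean CPM over the 8 libraries that were called higher, called lower, or had a 95% interval of the fold change within 2-fold in either direction. The called share rises from 13.7% in the lowest to 61.8% in the highest class, whereas the bounded share peaks at 59.2% between 100 and 1000 CPM.

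Transcripts with a mean of at least 1000 CPM over the 8 libraries took 22.1% to 30.9% of the counts in bone marrow and 34.5% to 38.7% in hippocampus. Of these 76, 28 were called higher and 19 lower in hippocampus, beside 15.8% and 12.9% of all transcripts tested. Since the mean covers both tissues, a transcript could enter this class through the tissue where it was high, so the share called is not set against the rest by a test. The 28 summed to 302220 CPM in hippocampus replicate 1, 362823 in replicate 2, 330089 in replicate 3 and 261984 in replicate 4. In bone marrow replicates 1 to 4 they summed to 27978, 30102, 32511 and 9991 CPM. They took 25.9% to 32.1% of the counts in hippocampus and 1.22% to 3.34% in bone marrow. Since these transcripts were picked by the same comparison, the sums describe them and carry no test.

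The 28 higher transcripts were a mixed set in size of change. Their log2 fold changes ran from 0.77 to 15.19 with a median of 3.18. Since they were picked as called higher, a median above the 0.00 of all transcripts tested was fixed by the choice. In 11 the change was at least 16-fold, and in 6 it was under 2-fold. Beside 91.5% of all higher calls, all 28 separated the 4 hippocampus from the 4 bone marrow libraries without overlap. Their summed level was 261627 ± 51922 CPM in skin (SD, n = 5), 247809 ± 8741 CPM in hippocampus at PN7 (SD, n = 3), 156785 ± 30426 CPM in hypothalamus at PN2 (n = 2, SD) and 72713 CPM in the hypothalamus library of PN7. The order of the groups by summed level was thus hippocampus PN2, skin, hippocampus PN7, hypothalamus PN2, hypothalamus PN7 and bone marrow. Ranges overlapped for hippocampus PN2 and skin and for skin and hippocampus PN7. The 2 named higher transcripts, at means of 87410.5 and 64401 CPM in hippocampus, weigh heavily in its mean sum of 314279 CPM. By median member the order differed, at 2758 CPM in hippocampus PN7, 2697 in hippocampus PN2 and 1970 in skin. Hypothalamus followed at 1689 CPM (PN2) and 1162 CPM (PN7), and bone marrow at 704 CPM.

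The 19 lower transcripts fell into a larger strongly changed set and a smaller weakly changed one. In 14 the level was at least 16-fold lower in hippocampus, in 4 it was under 2-fold lower and in 1 between 2 and 4 times lower. Their median log2 fold change was -7.91. Beside 90.0% of all lower calls, 18 of the 19 separated the libraries without overlap. They summed to 198994, 178690.0, 199679 and 91870.3 CPM in bone marrow replicates 1 to 4. In hippocampus they summed to 12747, 11824, 12475 and 14261 CPM, in skin to 12251 ± 928 CPM (SD, n = 5) and in hippocampus at PN7 to 12577 ± 1100 CPM (SD, n = 3). Hypothalamus held 20235 ± 296 CPM at PN2 (n = 2, SD) and 35643 CPM in the PN7 library. The ranges of these sums overlapped for skin and both hippocampus ages, with bone marrow far above every other group. The highest of the 19 in hippocampus averaged 8237 CPM there, so the hippocampal sum rests largely on 1 transcript. By median member the groups were further apart, at 7.70 CPM in skin, 68.3 in hippocampus PN2 and 264 in hippocampus PN7. That median was 507 CPM in hypothalamus PN2, 518 in hypothalamus PN7 and 3229 in bone marrow. Of the 19, 3 had values identical to another transcript.

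**Figure D4:**
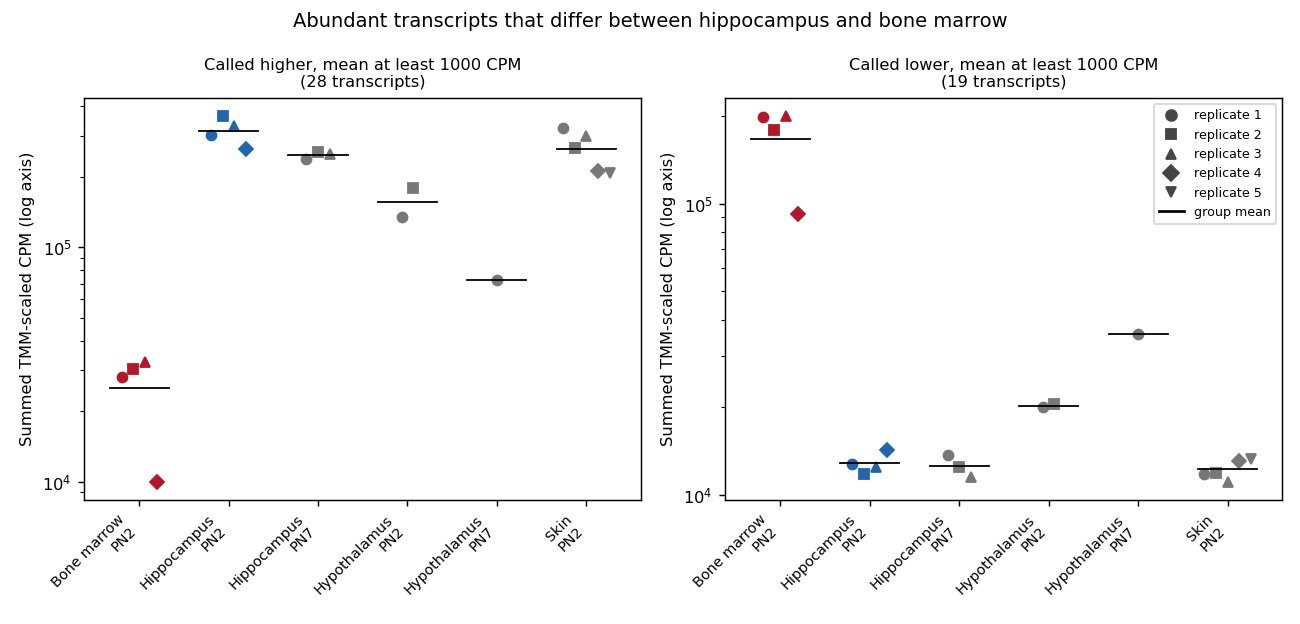
Summed TMM-scaled CPM (log axis) of the 28 transcripts called higher and the 19 called lower in hippocampus among those with a mean of at least 1000 CPM, in each of the 19 libraries by group, with the group mean as a line. Bone marrow replicate 4 (diamond) is the lowest bone marrow library in both panels, at 9991 and 91870.3 CPM.

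Bone marrow replicate 4 was low in both directions of the abundant set. Among the 28 higher transcripts it was the single lowest bone marrow library for 23 of 27 without a tie, and among the 19 lower ones for 16 of 19. Over all transcripts tested it was the single lowest for 42.4% and the single highest for 36.6% of those without a tie, so it lay at either edge of its group more often than each of the other 3 libraries. Its level was below that of replicates 1 to 3 by a median of 2.33-fold in the 28 and 1.72-fold in the 19. In the 29 abundant transcripts that were not called, it was the single lowest for 17 and lay below the others by a median of 1.43-fold, although its sum was the highest of the group, 78963 CPM against 59942 to 69082 CPM. Without it, all 28 and all 19 were still called.

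Replicate spread was smaller without replicate 4 of either tissue. At 1000 CPM or more the median SD of log2 CPM was 0.50 in bone marrow and 0.26 in hippocampus. Without replicate 4 of each group it was 0.13 in bone marrow and 0.14 in hippocampus, whereas leaving out any other library gave 0.54 to 0.59 in bone marrow and 0.25 to 0.27 in hippocampus. At 10 CPM or more the medians were 0.26 and 0.22 with all 4 libraries, and 0.12 and 0.14 without replicate 4.

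In these 8 libraries, the most abundant transcripts took a larger share of the counts in hippocampus. The 10 most abundant transcripts took 26.8%, 29.9%, 28.3% and 23.5% of the counts in hippocampus replicates 1 to 4, and 19.5%, 18.9%, 20.5% and 13.2% in bone marrow. The groups did not overlap. The means of 27.1% ± 2.72 and 18.0% ± 3.28 (SD, n = 4 each) gave p = 0.0286 in an exact two-sided permutation test, the smallest that 4 against 4 libraries allow, and 0.0571 after Benjamini-Hochberg adjustment over the 2 library measures tested. The lists themselves differed: by mean CPM, 3 of the 10 most abundant transcripts were shared, 30% of either list, and 48 of the 100 most abundant. Of the hippocampal top 10, 7 were called higher and 1 lower, and of the bone marrow top 10, 8 were called lower and 1 higher. Over all transcripts tested, 15.8% were called higher and 12.9% lower. Each list was ranked in the libraries that gave the calls, so the ranking itself leans toward its own tissue. In the bone marrow list 3 of the 10 had values identical to another transcript, which counts 1 signal more than once. With identical transcripts merged, the mean share of the top 10 was 27.2% in hippocampus and 19.4% in bone marrow. Unmerged, it was 21.2% to 28.9% in skin and 21.4% to 22.6% in hippocampus at PN7. The hypothalamus libraries held 21.6% and 34.5% at PN2 and 16.4% at PN7.

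The number of different transcripts was close in both tissues. With every library thinned to 16196820 counts, 18414, 18286, 18003 and 17940 transcripts had at least 1 count in hippocampus replicates 1 to 4, and 17419, 18127, 17522 and 17668 in bone marrow. The groups overlapped. The means were 18161 ± 226 and 17684 ± 313 (SD, n = 4 each), a difference of 477 (exact two-sided permutation p = 0.0857, also after adjustment). With at least 5 counts as the limit the means were 15850.5 and 15789.5 (exact p = 0.829).

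Transcripts with reads in only 1 of both tissues were mostly of low level. Of the transcripts called higher, 437 had 0 counts in all 4 bone marrow libraries, and of those called lower, 280 had 0 counts in all 4 hippocampus libraries. Their median levels were 0.759 CPM in hippocampus and 1.14 CPM in bone marrow, and 262 of the 437 and 131 of the 280 were under 1 CPM. Only 23 in each set reached 10 CPM. A count of 0 allows up to 3 counts over the 4 libraries of a group, a floor of 0.0339 CPM in bone marrow and 0.0365 CPM in hippocampus. Against this floor the median transcript was at least 22.4-fold higher in hippocampus or at least 31.3-fold lower there, and the bound was 10-fold or more for 357 of the 437 and 245 of the 280. Reads here have no molecular identifiers, so the floor covers counting error only. With 1 of the 8 libraries left out the numbers ran from 324 to 407 and from 222 to 295.

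In the other groups the bone marrow set of 280 summed to low levels, whereas the set of 437 summed to levels of the same order as in hippocampus but at a lower median. The 280 summed to 1336, 1452, 1370.2 and 1816 CPM in bone marrow replicates 1 to 4, and to 12.9 to 33.4 CPM in skin, 18.2 to 35.7 CPM in hippocampus at PN7, 18.4 and 55.3 CPM in hypothalamus at PN2 and 55.7 CPM in the PN7 library. The 437 summed to 1167, 963, 869 and 1576 CPM in hippocampus replicates 1 to 4, and to 675 to 791 CPM in skin, 849 to 1217 CPM in hippocampus at PN7, 664 and 1732 CPM in hypothalamus at PN2 and 1721 CPM in the PN7 library. The median member of the 437 was at 0.759 CPM in hippocampus at PN2, 0.321 CPM in hippocampus at PN7, 0.175 CPM in skin and 0 CPM in hypothalamus at either age. By count, 357 of the 437 had a read in skin and 353 in hippocampus at PN7, whereas of the 280, 122 had one in skin and 52 in hippocampus at PN7. In hypothalamus at PN2, whose libraries were shallower at 5495252 and 5607810 counts, 199 of the 437 and 19 of the 280 had a read. This contrast between the sets was not tested. All these sets rest on 0 counts in the tissue of the comparison, which fixes that tissue's value.

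**Figure D5:**
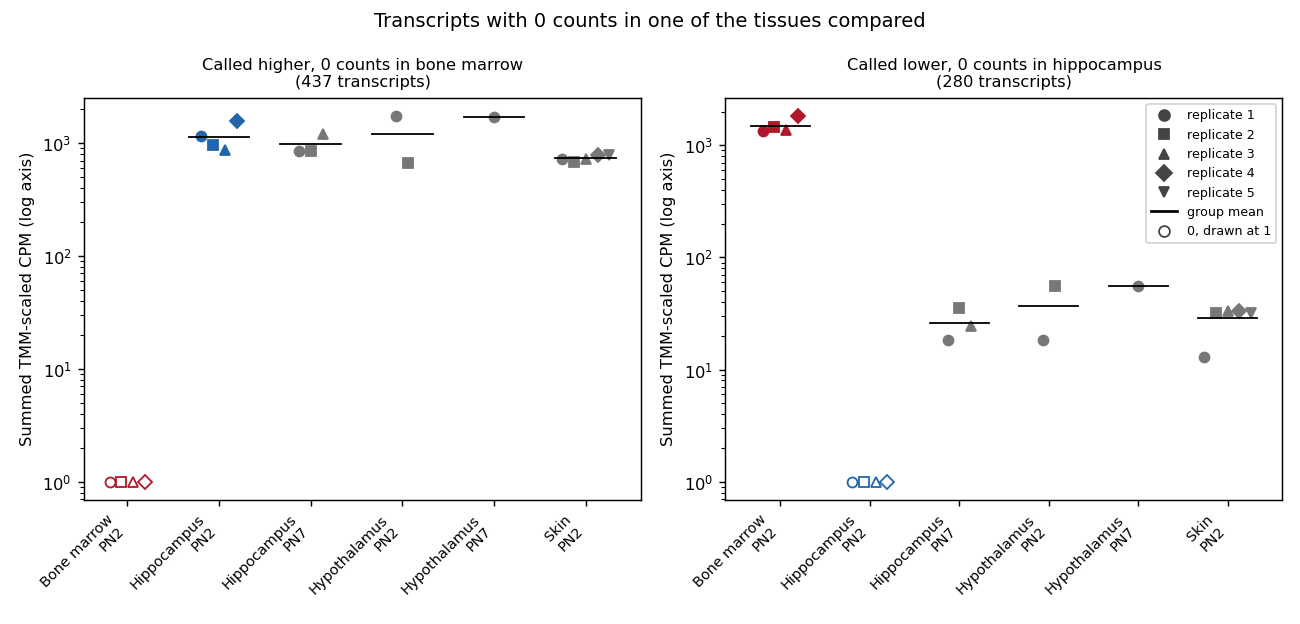
Summed TMM-scaled CPM (log axis) of the 437 transcripts called higher with 0 counts in bone marrow and the 280 called lower with 0 counts in hippocampus, in each of the 19 libraries by group, with the group mean as a line and sums of 0 drawn open at 1. The 437 sum to at least 664 CPM in every library outside bone marrow, whereas the 280 sum to at most 55.7 CPM in every library outside bone marrow.

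Summed over all calls, the transcripts that differed took a large share of the counts in the tissue where they were higher. The 3251 higher transcripts took 47.5% to 51.8% of the counts in the hippocampus libraries and 8.68% to 11.9% in bone marrow. The 2646 lower ones took 35.3% to 41.9% in bone marrow and 8.20% to 9.50% in hippocampus. The median higher transcript averaged 22.1 CPM in hippocampus and 5.94 CPM in bone marrow, and the median lower one 8.82 and 32.0 CPM. The 28 abundant higher transcripts alone held a mean of 29.5% of hippocampal counts out of the 50.1% held by all 3251, and the 19 abundant lower ones 17.9% of bone marrow counts out of the 39.8% held by all 2646.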

How the data were processed

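The authors deposited estimated counts per Ensembl transcript for 19 libraries, not scaled between libraries; kallisto and the build Rnor_6.0 are named per the submitters' processing notes. The sources used here give no version or settings of kallisto. Per the labels' protocols, cDNA came from a low-input SMART-Seq v4 kit and libraries from Nextera XT. The gene table used here, of a later assembly, lists 47357 genes and matched 0 identifiers, so 23 gene lists with 222 genes could not be applied and no sequence is shown.

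Expected counts were rounded to whole numbers. filterByExpr kept transcripts with at least 0.480 CPM (10 counts in the median library) in 1 library and 15 counts in all, leaving 20521, of which 2245 had values identical to another. A transcript could thus pass through 1 library alone. edgeR 4.0.16 (R 4.3.3) fitted group means of all 19 libraries (TMM, glmQLFit robust, glmQLFTest); calls had a Benjamini-Hochberg adjusted p below 0.05. SE is the log2 fold change divided by the square root of F, and the 95% interval uses the t quantile; 486 transcripts had no F above 0 and no interval. log2 CPM used a prior count of 2. Named transcripts are the 2 per direction with the largest difference in mean CPM among those called, at least 10 CPM in the higher group, without overlap and not identical to another. Permutation tests used SciPy 1.17.1. The comparison, lists and rules were chosen with earlier results of these data known. On simulated counts over 18709 transcripts, 38% of 2-fold and 85% of 4-fold changes were recovered in this comparison, with 6 false calls. There, 100 transcripts were changed per fold, none of them from the lowest levels. Counts were drawn independently, without a library that deviates as a whole, so these rates need not hold for the real data.

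Alternatives were RLE size factors, DESeq2 1.42.0, limma 3.58.1 voom, no filter and a stricter filter, only the 8 libraries, the replicate number as a block, identical transcripts merged, no libraries numbered 4 and 5, thinning, and each library left out. The block within the 8 libraries, and the replicate spread without each library, were chosen after seeing the data.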

Additional observations from a re-analysis of the deposited data

Results flagged for a closer look

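In 3 of 38 groups of 4 or 5 libraries examined, 1 library lay further from the nearest other than Dixon's 95% criterion allows; chance gives about 5% of groups. ENSRNOT00000073555.2 held 16091 CPM in bone marrow replicate 4, against 42644 to 47854 CPM in replicates 1 to 3. The same transcript held 221 CPM in hippocampus replicate 4, against 135 to 141 CPM in the other 3 libraries. The 280 transcripts with 0 counts in hippocampus summed to 12.9 CPM in skin replicate 1, the shallowest skin library, against 32.1 to 33.4 CPM in the other 4.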

How the results depend on the processing

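The count of 3251 higher and 2646 lower transcripts became 4962 and 4576 with limma voom and quality weights per library. It stayed within 1.5 times under the other alternatives, and no call changed direction in any alternative. With DESeq2 it was 3463 and 3188, where 1476 transcripts had no adjusted p, and without the libraries numbered 4 and 5 it was 2705 and 2303. With 1 library left out it ran from 2665 to 2995 higher and from 2111 to 2550 lower. Similar totals did not mean the same members. Of the 3251 higher and 2646 lower calls, 2454 and 2023 were still called without the libraries numbered 4 and 5. In the fit of only the 8 libraries 2639 and 2330 were, and with limma voom 3195 and 2615. Deviations of same-numbered libraries from their group means correlated at 0.0067, 0.082, 0.095 and 0.27 for numbers 1 to 4, too low in the first 3 to take the numbers as pairs. The libraries numbered 4 deviated together, at the 0.27 given. Each correlated at -0.069 to -0.19 with numbers 1 to 3 of the other tissue. Since deviations cancel within a group, negative values there follow on balance from the 0.27 and add nothing to it. With the replicate block 3184 were higher and 2546 lower, and within the 8 libraries alone, with the block, 3130 and 3040. The 4 named transcripts kept direction and call in all 19 alternatives. With edgeR fitted on the 8 libraries alone, adjusted p was 0.00249 for ENSRNOT00000014970.7 and 0.00146 for ENSRNOT00000067539.2, larger than in the main fit. It was also larger for ENSRNOT00000073555.2, at 6.88e-06, and smaller for ENSRNOT00000011168.3, at 0.000908. Of the abundant transcripts, 25 of 28 higher and 14 of 19 lower were called in all 19. The difference in the share of the 10 most abundant transcripts ran from 7.50 to 10.3 percentage points with 1 library left out, where the smallest exact p that 3 against 4 libraries allow is 0.0571. The difference in transcripts detected ran from 388 to 624. Of the 9872 transcripts neither called nor bounded within 2-fold, 5248 were under 1 CPM.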
